A study of Mus musculus with 4 samples.

Results

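The 10 core circadian clock genes (*Clock*, *Arntl*, *Npas2*, *Per1*, *Per2*, *Per3*, *Cry1*, *Cry2*, *Nr1d1* and *Nr1d2*) were taken by symbol from the mouse annotation, where they are 10 of 22367 protein-coding genes. Their position at the nuclear envelope (NE) was read from lists of lamina-associated domains (LADs) in primary hepatocytes of WT mice and of *Tm7sf2*-KO mice, which lack the NE transmembrane protein Tm7sf2, also called NET47. The mice were 12 to 16 weeks old, and both genotypes were on a C57BL/6 background and were housed under a light/dark cycle. Hepatocytes were cultured with insulin, dexamethasone and EGF and exposed for 24 h to lentivirus that encoded Dam methylase, either fused to LaminB1 or alone (Dam only). Per the study, the medium was then renewed and the cells stayed in culture while Dam methylated DNA. The marks thus built up over time and do not show a single hour. Of the 4 libraries, 1 belongs to each construct and genotype, and each holds DNA pooled from 4 mice, so that no difference below carries an error between animals or a p-value. The hour of the day at which cells were taken is not given in the sources used here. The lists hold positions without expression, so that the labelled cell type could not be checked against its markers.

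The clock is a transcription-translation loop. CLOCK, or its paralog NPAS2, pairs with ARNTL (BMAL1) and binds E-boxes in target genes, among them those for the PER and CRY proteins, which enter the nucleus and repress that pair. In a further loop, the REV-ERB receptors encoded by *Nr1d1* and *Nr1d2* repress *Arntl* and compete with the ROR receptors for the same elements. In liver, the clock times much of glucose, lipid and bile acid metabolism. DamID records contact with the lamina because Dam methylase fused to LaminB1 methylates the adenine of GATC sites nearby, while Dam only records how open each site is. A LAD is a stretch in which the ratio of these signals is raised.

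The sequences at the borders of the regions that set the clock genes apart between the genotypes show what a LAD border is in these lists. Of the 48366 borders of all LADs, 99.3% lay in a GATC site. Each line below gives 60 bases of the plus strand of NCBIM37 (the same assembly as mm9), with GATC in capitals. The first 4 borders belong to the KO LADs on *Npas2*, the next 2 to the KO LAD on *Cry1*, and the last 2 to the WT LAD next to *Nr1d2*.
*Npas2* start, chr1:39247753-39247812, intergenic: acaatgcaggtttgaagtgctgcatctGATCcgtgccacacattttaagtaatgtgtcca
*Npas2* start, chr1:39260015-39260074, intron 1: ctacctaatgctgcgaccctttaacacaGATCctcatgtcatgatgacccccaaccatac
*Npas2* interior, chr1:39325562-39325621, intron 2: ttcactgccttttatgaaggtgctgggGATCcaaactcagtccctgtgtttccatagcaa
*Npas2* interior, chr1:39346559-39346618, intron 3: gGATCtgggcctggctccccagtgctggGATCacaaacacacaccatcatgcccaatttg
*Cry1* 3′ end, chr10:84588527-84588586, intron 2 of *Mterfd3*: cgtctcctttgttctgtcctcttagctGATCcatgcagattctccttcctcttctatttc
*Cry1* 3′ end, chr10:84606509-84606568, exon 9: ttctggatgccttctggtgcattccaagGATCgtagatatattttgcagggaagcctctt
*Nr1d2* neighbor, chr14:19006584-19006643, intergenic: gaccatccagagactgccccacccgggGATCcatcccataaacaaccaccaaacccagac
*Nr1d2* neighbor, chr14:19026715-19026774, intergenic: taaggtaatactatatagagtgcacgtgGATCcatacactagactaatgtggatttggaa

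The WT list held 8107 LADs over 1472 Mb, and the KO list held 16076 LADs over 1490 Mb. In WT hepatocytes, none of the 10 clock genes overlapped a LAD. In the KO, *Npas2* and *Cry1* each overlapped KO LADs over part of their span, and the other 8 genes stayed outside. Genes were classed by the overlap of their span with a differential region (DR), a stretch of at least 10 kb in the LADs of 1 genotype only. A gene was called PI if it met a WT-only DR, IP if it met a KO-only DR, AMB if it met both, PP if it lay in LADs of both genotypes without a DR, and II otherwise. The clock genes held 2 IP genes (20%), beside 17.1% of all coding genes, and 8 II genes (80%), beside 56.6%. No member was PI, PP or AMB, classes that took 5.43%, 17.9% and 2.96% of all coding genes. The IP count is thus near the share among all genes. The IP share varied with gene length, from 10.3% of the genes under 20 kb to 30.4% of the genes of 50 to 100 kb, the range of *Cry1*, and to 34.8% of those of 100 to 200 kb, the range of *Npas2*, and was 26.2% in longer genes. Classed by exons alone, 2 clock genes were again IP, beside 16.7% of all coding genes. The exon counts below come from the same DRs as the calls above, and their share over all coding genes was not computed. Of the 173 exons of the 10 main transcripts, 7 lay wholly or in part in KO LADs only, all of them in *Npas2* and *Cry1*. The other 166 lay in no LAD of either genotype.

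Among the activators, *Npas2*, whose protein can stand in for CLOCK, was the gene with the most bases in KO LADs. It spans 169.5 kb on the plus strand of chromosome 1 (39250576-39420079), with 21 exons. In WT its nearest LAD lay 110.0 kb away, on the 5′ side (229 kb without LADs under 20 kb), and 0% of the span was in LADs. In the KO 18.0% of the span, or 30.5 kb, was in LADs, in a pair of separate domains. The first, chr1:39247783-39260045, was 12.3 kb long and ran from -2.79 kb to 9.47 kb from the transcription start, so that it held the start, the noncoding exon 1 and the first part of intron 1. The second, chr1:39325592-39346589, was 21 kb long, began 75.0 kb from the start and ended 96.0 kb from it, and held the coding exon 3 with parts of introns 2 and 3. Each was a complete KO LAD with no base in WT LADs, and neither held another coding gene. The other 19 exons lay outside. The domains held 23 and 52 GATC sites, which bounds how many independent fragments each rests on.

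*Npas2* was the only clock gene with its start in a LAD. Both of its coding transcript starts, at 39250576 and 39251057, lay in the KO LAD and outside WT LADs. That KO LAD was 12.3 kb long, and without LADs under 20 kb neither start lay in a LAD. Among all coding genes, 12.7% had the start in KO LADs only. The start of *Cry1* stayed outside LADs in both genotypes. The 250 bases before it are shown 5′ to 3′ along the gene, with the E-box CACGTG, the element bound by the activator pair, in capitals. This palindrome occurs in the same 250 bases of 6.52% of all coding genes.
*Cry1*, chr10:84647800-84648049, minus strand: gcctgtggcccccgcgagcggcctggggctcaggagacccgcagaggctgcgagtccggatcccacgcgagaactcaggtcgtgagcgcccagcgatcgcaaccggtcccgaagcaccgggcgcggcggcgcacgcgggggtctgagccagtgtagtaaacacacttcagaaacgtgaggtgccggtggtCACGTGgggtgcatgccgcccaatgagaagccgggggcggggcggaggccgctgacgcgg

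**Figure D1:**
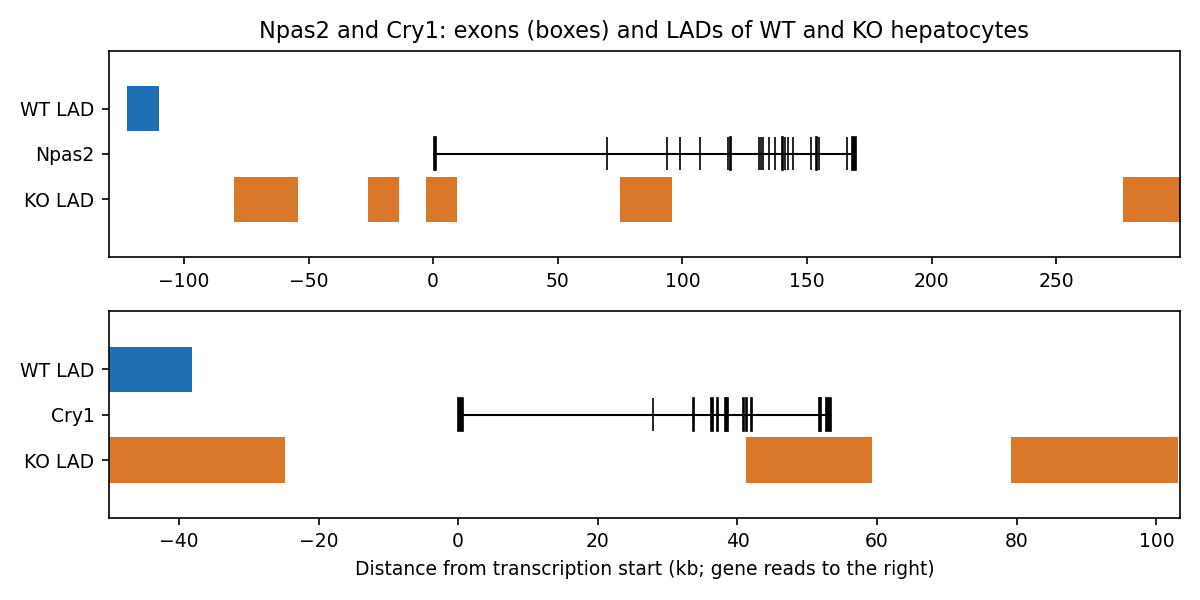
Exons (black boxes on the gene line) of *Npas2* and *Cry1*, with WT LADs (blue, above) and KO LADs (orange, below). The x axis gives the distance from the transcription start in kb, with the gene running to the right. The KO LADs lie over the start and the interior of *Npas2* and over the 3′ end of *Cry1*, where no WT LAD lies.

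*Clock*, which encodes the usual partner of ARNTL, spans 93.8 kb on the minus strand of chromosome 5 (76639992-76733817) and lay outside LADs in both genotypes, but LADs came closer on both sides in the KO. In WT the flanking LADs were 98.4 kb away on the 5′ side and 172.0 kb away on the 3′ side. In the KO the flanking LADs were 26.4 kb away on the 3′ side (chr5:76595005-76613624) and 28.8 kb away on the 5′ side (chr5:76762630-76816700). The LAD-free gap that holds *Clock* was 364 kb in WT and 149 kb in the KO, and the coding genes that lay wholly inside it, *Clock* included, numbered 5 in WT and 2 in the KO. The KO LAD that closes this gap on the 3′ side was 18.6 kb long. Without LADs under 20 kb, *Clock* lay 28.8 kb from a LAD in the KO and 98.4 kb in WT. The gap was not computed under that setting. *Clock* had the highest LAD coverage around it of the 10 genes, with 33.9% of the 1 Mb centered on the gene in WT LADs and 57.3% in KO LADs.

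*Arntl*, which encodes the partner shared by CLOCK and NPAS2, spans 106.7 kb on the plus strand of chromosome 7 (120350979-120457636). In WT it lay deep between LADs, 1066 kb from the nearest, in a gap of 2428 kb with 16 coding genes. In the KO, LADs flanked it at 40.7 kb on the 5′ side (chr7:120294219-120310306) and 31.1 kb on the 3′ side (chr7:120488764-120506165), in a gap of 178 kb in which *Arntl* was the only complete coding gene. The gap was thus 13.6 times as long in WT, the highest ratio among the 8 genes that lay in a gap in both genotypes. No base of the 1 Mb around *Arntl* was in WT LADs, while 5 KO LADs covered 13.4% of it. Both flanking KO LADs were under 20 kb, and without LADs of that size *Arntl* lay 135 kb from a LAD in the KO and 1256 kb in WT.

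The *Period* genes encode repressors of the activator pair, and all 3 lay outside LADs in both genotypes. *Per1* spans 14.7 kb on chromosome 11 (68908719-68923462, plus strand). It was 1639 kb from the nearest WT LAD and 216 kb from the nearest KO LAD. Its gap went from 3593 kb with 127 coding genes in WT to 1241 kb with 74 in the KO. Without LADs under 20 kb, *Per1* was 1667 kb from a LAD in WT and 694 kb in the KO. *Per2* spans 43.3 kb on chromosome 1 (93312561-93355907, minus strand) and was 646 kb from a LAD in WT and 407 kb in the KO, the farthest of the 10 genes in the KO. Its gap was 1756 kb in WT and 1459 kb in the KO. *Per3* spans 41.0 kb on chromosome 4 (150377761-150418774, minus strand), with 383 kb to a LAD in WT and 56.2 kb in the KO. The nearer LAD in the KO was on the 5′ side of *Per3*, chr4:150474973-150503986, and its gap was 4.15 times as long in WT. Without LADs under 20 kb, *Per2* was 1066 kb from a LAD in WT and 597 kb in the KO. *Per3* was then 1443 kb from a LAD in WT and 56.2 kb in the KO. The 1 Mb around these genes held little LAD in either genotype, from 0% to 3.31% in WT and from 1.97% to 6.35% in the KO.

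The cryptochromes, which repress together with the PER proteins, differed from each other. *Cry1* spans 53.4 kb on the minus strand of chromosome 10 (84594447-84647799), with 13 exons. In WT no base of it was in a LAD, and the nearest LAD lay 38.1 kb upstream of the start. In the KO 22.7% of the span, or 12.1 kb, was in LADs, all of it in the DR chr10:84588557-84606539. This DR was 18.0 kb long, a complete KO LAD with 39 GATC sites, and ran from 41.3 kb to 59.2 kb from the start. It held part of exon 9 and all of exons 10 to 13, which carry the end of the coding sequence and the 3′ UTR. It went past the end of the gene into *Mterfd3*, the neighboring gene, which was also called IP. The start of *Cry1* was 24.8 kb from the nearest KO LAD, so the start itself was outside LADs in both genotypes. *Cry1* was no longer IP if DRs had to reach 20 kb, if LADs under 20 kb were left out, or if the start alone was classed. *Npas2* was IP in all 3 cases, but in the 20 kb cases through its interior domain alone (12.4% of the span).

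*Cry2* spans 30.4 kb on the minus strand of chromosome 2 (92243803-92274200) and was II. It was the clock gene farthest from a LAD in WT, at 1974 kb, and 176 kb from one in the KO, or 326 kb without LADs under 20 kb. Its gap of 4043 kb in WT, with 57 coding genes, was 473 kb with 7 coding genes in the KO. The 1 Mb around *Cry2* held no WT LAD and 4 KO LADs, which covered 4.87% of it.

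The REV-ERB genes also differed from each other. *Nr1d1* spans 7.40 kb on the minus strand of chromosome 11 (98629246-98636647), the shortest of the 10 genes. It lay 538 kb from a LAD in WT and 401 kb from one in the KO, and its gap was nearly the same, at 2856 kb and 2680 kb, with 80 and 76 coding genes. Its span holds only 5 GATC sites, or 1 per 1480 bases beside 1 per 399 bases in the genome, so that DamID reads the gene itself through few fragments. *Nr1d2* spans 35.1 kb on the minus strand of chromosome 14 (19036568-19071641) and was the only clock gene that was farther from a LAD in the KO. The WT LAD chr14:19006614-19026745, of 20.1 kb and 58 GATC sites, ended 9.82 kb from the 3′ end of *Nr1d2*. No base of that LAD was in KO LADs, and the nearest KO LAD was 39.8 kb from the gene. On the 5′ side the order was the opposite, with 191.8 kb to a LAD in WT and 86.6 kb in the KO. The 100 kb centered on *Nr1d2* were 20.1% WT LAD and 0% KO LAD, so that this gene would be called PI if the class were taken from that window.

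**Figure D2:**
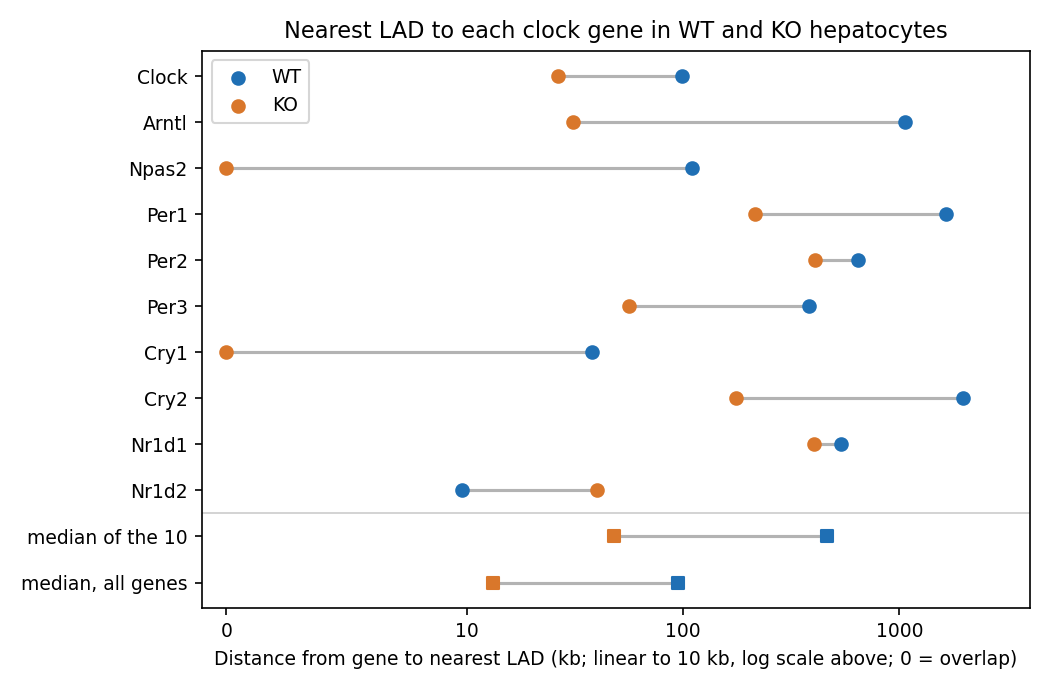
Distance from each clock gene to its nearest LAD in WT (blue) and KO (orange), in kb, on an axis that is linear to 10 kb and logarithmic above. Squares are medians over the 10 genes and over all coding genes. The KO point lies left of the WT point for every gene but *Nr1d2*, and at 0 for *Npas2* and *Cry1*.

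Across the group, 9 of the 10 genes were nearer a LAD in the KO. The KO list held 16076 LADs and the WT list 8107, over a similar total length. The part of LAD number in the distances and gaps was not tested. The median distance was 460 kb in WT and 48.0 kb in the KO, beside 95.0 kb and 13.3 kb over all coding genes. That background includes genes that lie in LADs. For genes outside LADs of both genotypes, the medians of the 8 clock genes were 592 kb in WT and 115.9 kb in the KO. Those of all such coding genes were 401 kb and 119.0 kb. *Nr1d2*, *Cry1*, *Clock* and *Npas2* were the nearest to a WT LAD, in that order, and *Arntl*, *Per1* and *Cry2* were each over 1 Mb away. The order differed in the KO, where *Clock*, *Arntl* and *Nr1d2* followed *Npas2* and *Cry1* within 26.4 to 39.8 kb and *Nr1d1* and *Per2* came last. Of the 8 clock genes outside LADs of both genotypes, 7 were nearer a LAD in the KO, and of all 12518 such coding genes 83.6% were. The direction was therefore the common one. The median ratio of the WT to the KO distance was 5.27 over these 8 genes and 2.59 over all coding genes outside LADs. This ratio was not computed without LADs under 20 kb, a setting that changed the distances of several of these genes. No measure of spread between animals exists to set these medians against.

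**Figure D3:**
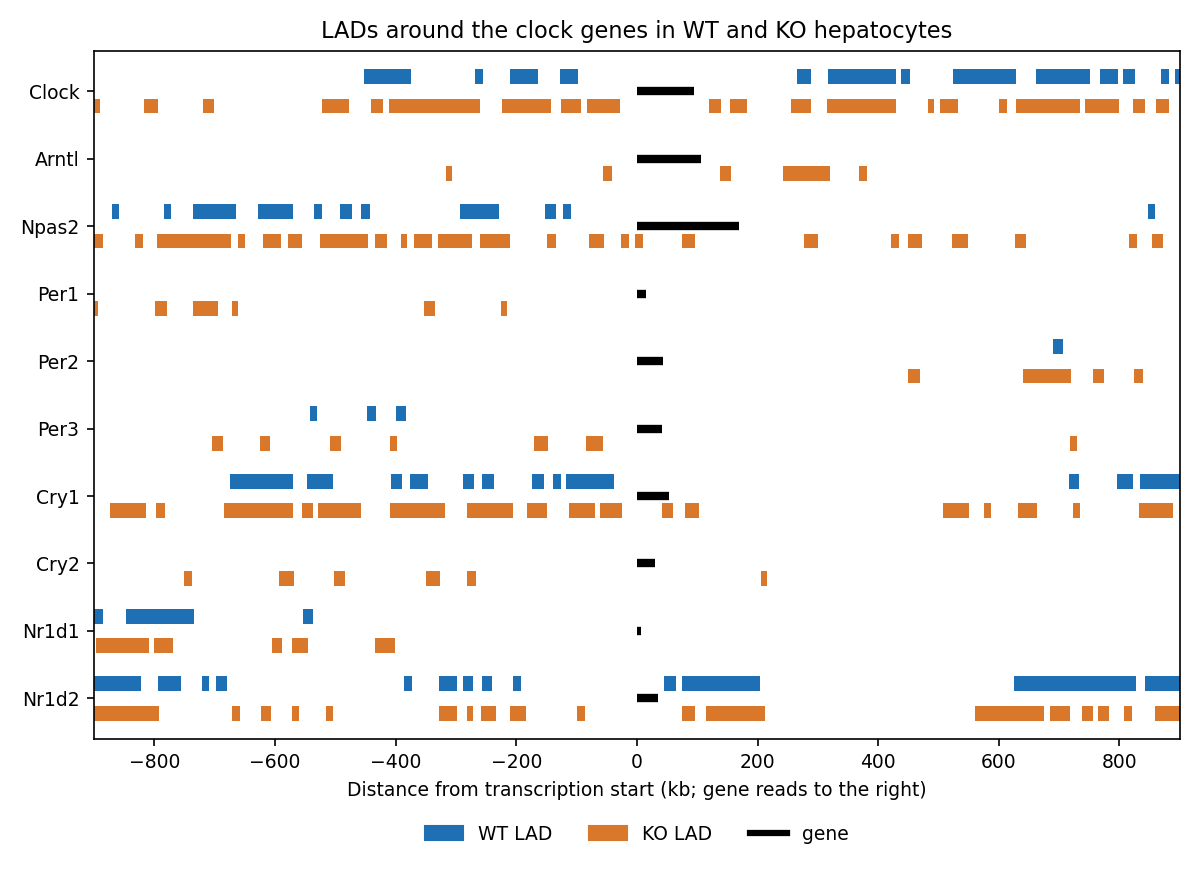
WT LADs (blue) and KO LADs (orange) around each of the 10 clock genes (black), in kb from the transcription start, with each gene running to the right. KO LADs appear around *Arntl*, *Per1* and *Cry2*, whose WT rows are empty, and the WT LAD just past the end of *Nr1d2* has no KO counterpart.

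LAD coverage of the neighborhood varied widely among the genes, and *Clock* was the only one above the median of all coding genes in both genotypes. In the 1 Mb around *Clock*, *Npas2*, *Cry1* and *Nr1d2*, WT LADs took 33.9%, 9.47%, 19.6% and 23.8%, and KO LADs took 57.3%, 31.8%, 35.4% and 22.2%. Around *Per3* the shares were 3.31% and 6.35%. *Arntl*, *Per1*, *Per2*, *Cry2* and *Nr1d1* had no WT LAD in that 1 Mb, and KO LADs took 13.4%, 2.75%, 1.97%, 4.87% and 3.29% of it. Coverage was higher in the KO for 9 of the 10 clock genes and for 62.9% of all coding genes, the exception among the clock genes being *Nr1d2*. Among genes outside LADs of both genotypes, it was higher for 7 of the 8 clock genes and for 8568 of all 12518 such coding genes. A 1 Mb window without a WT LAD was found for 50% of the clock genes and 27.0% of all coding genes. Among genes outside LADs of both genotypes, it was found for 62.5% of the 8 clock genes and 44.7% of all such coding genes. Of the 6030 coding genes with no WT LAD in 1 Mb, 73.0% had KO LADs there. The median coverage around the clock genes was 1.66% in WT and 9.90% in the KO, beside 23.2% and 28.8% for all coding genes, which include genes in LADs. For genes outside LADs of both genotypes, the medians were 0% in WT and 5.61% in the KO for the 8 clock genes. Those of all such coding genes were 1.76% and 7.62%. Within 100 kb, coverage was higher in the KO for *Npas2* (0% in WT and 21% in the KO) and *Cry1* (0% and 18.0%) only, lower for *Nr1d2*, and 0% in both genotypes for the other 7 genes.

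**Figure D4:**
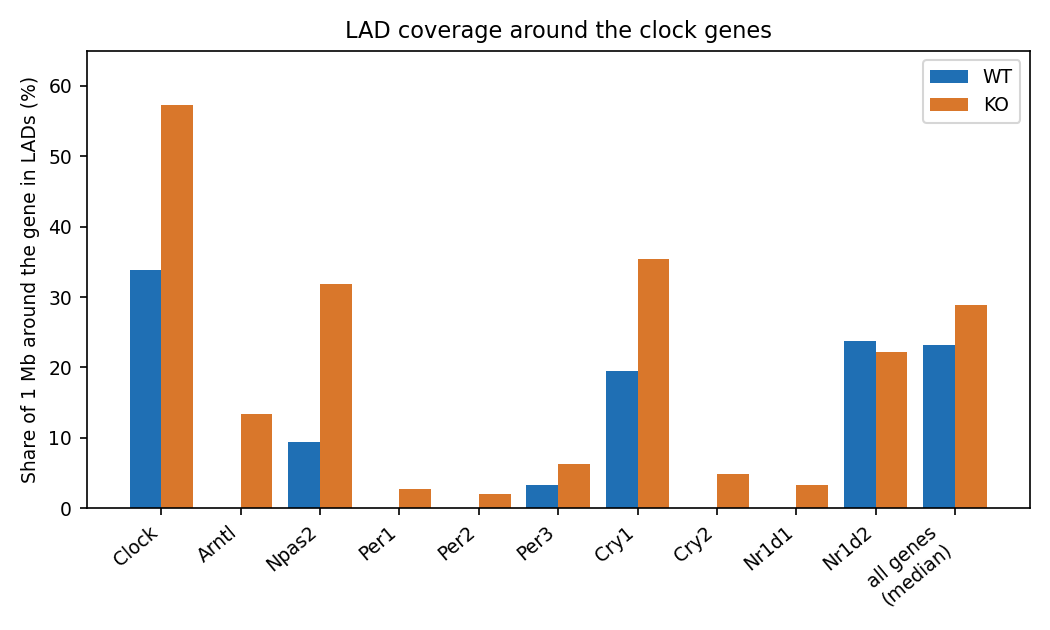
Share of the 1 Mb centered on each clock gene that lay in WT LADs (blue) and KO LADs (orange), in percent, with the median over all coding genes at the right. The KO bar is the higher for 9 of the 10 genes, and 5 genes have no WT bar.

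The elements through which the clock genes regulate each other were looked up in RefSeq promoter windows (GRCm38.p6, 250 bases before to 50 bases after a start, both strands). Of the 10 genes, 9 had an entry, *Per2* being the exception, with 13 windows that each had a single exact match in NCBIM37. The E-box CACGTG was in windows of *Per1* and *Cry1* and in 7.15% of all 32851 promoters. The element AGGTCA, the core of the site bound by ROR and REV-ERB receptors, was in windows of *Clock*, *Arntl*, *Per1* and *Nr1d2* and in 16.3% of all promoters. The D-box (TTATGTAA or TTACGTAA, in 0.938% and 0.119% of promoters) was found in *Per3*, and the full RORE, whose core overlaps AGGTCA, in *Arntl* and in 0.384% of promoters. A match is a description of these windows and not a bound site.

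The other 21 clock pathway genes comprise paralogs and partners, ROR receptors, PAR bZIP factors and NFIL3, DEC repressors, kinases, ubiquitin ligases and a protease, and a deadenylase. Of these, 2 were IP (9.52%), among them *Btrc*, 1 was PI (*Rorb*), 1 was AMB (*Rora*), none was PP, and 17 (81%) were II. Among all coding genes, IP took 17.1% and II 56.6%, and a difference from these shares was not tested. *Rora* and *Rorb* encode ROR receptors, which activate *Arntl* through the elements that the REV-ERB receptors repress, and they met DRs in different ways.

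AMB calls took 34.3% of the coding genes of 200 kb or more. *Rora* spans 734 kb on chromosome 9 and met 5 KO-only DRs, which took 14.4% of its span, and 1 WT-only DR, which took 1.79%. The KO-only DR at its 5′ end, chr9:68493011-68547660, held the start and exon 1. On chromosome 19, per the study, PI regions took a far larger part than IP regions. *Rorb*, on this chromosome, was 95.4% in WT LADs and 41.6% in KO LADs. Its 3 WT-only DRs took 53.8% of the span, and 8 of its 10 exons were in WT LADs only, while its start was outside LADs in both genotypes. *Btrc*, which encodes a ubiquitin ligase subunit that targets PER proteins, had 7.96% of its 169.6 kb in the KO-only DR chr19:45580582-45594089, with 8 of its 15 exons. Its IP call was lost if at least 10% of the span had to lie in DRs, if DRs had to reach 20 kb, if LADs under 20 kb were left out, or if the start alone or a 100 kb window was classed. In WT *Btrc* was 1977 kb from the nearest LAD.

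**Figure D5:**
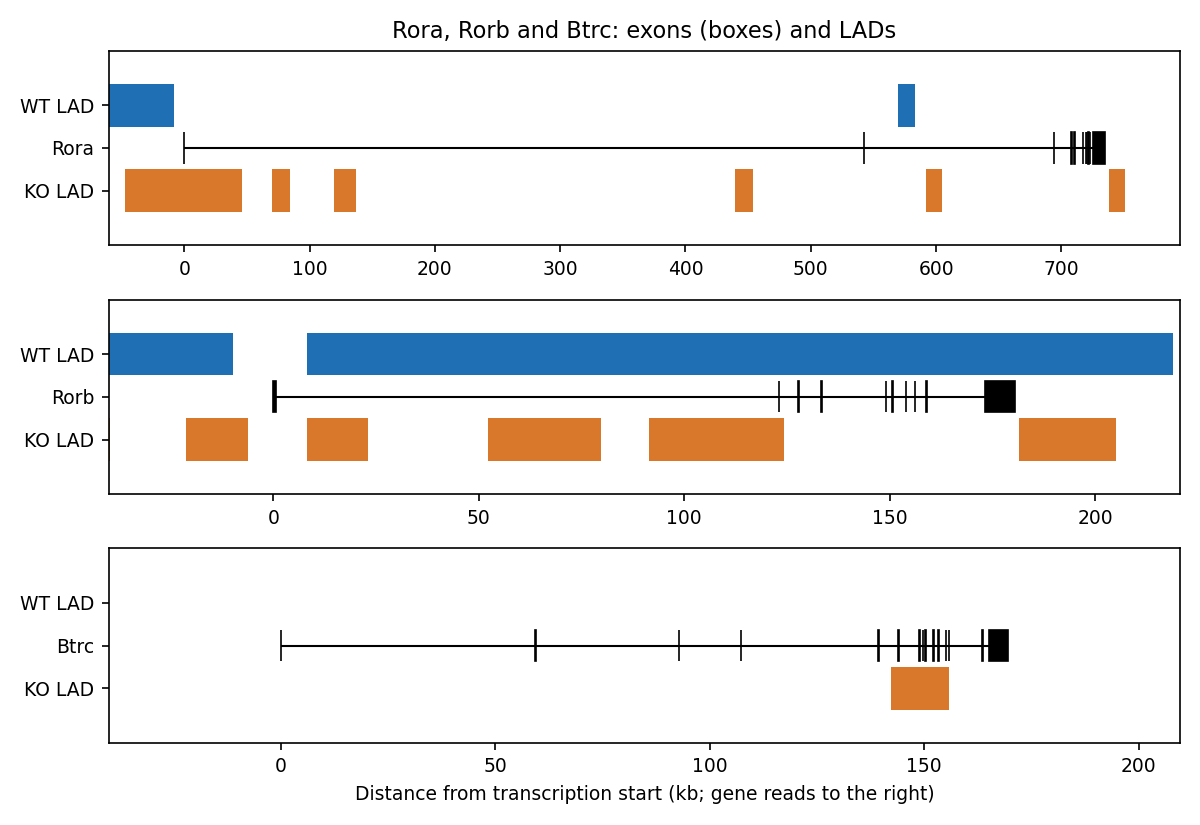
Exons (black boxes on the gene line) of *Rora*, *Rorb* and *Btrc*, with WT LADs (blue, above) and KO LADs (orange, below), by distance from the transcription start in kb. Shorter KO LADs lie where a long WT LAD covers *Rorb*, whereas KO LADs lie over parts of *Rora* and *Btrc*.

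Of the 17 further genes outside LADs of both genotypes, 16 were nearer a LAD in the KO, beside 83.6% of all such coding genes. Their median distance was 498 kb in WT and 119.8 kb in the KO, beside 401 kb and 119.0 kb for all coding genes outside LADs. *Hlf* and *Arntl2* were among the nearest to a LAD border. *Hlf*, a PAR bZIP factor gene, was 5.66 kb away in WT and 4.31 kb in the KO. *Arntl2*, the paralog of *Arntl*, was 293 kb away in WT and 29.5 kb in the KO.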

How the data were processed

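DamID libraries came from hepatocytes of WT and *Tm7sf2*-KO mice, 1 Dam-LaminB1 and 1 Dam only library per genotype. The authors mapped the reads to mm9 (the submitters' processing notes name BWA and limma), computed a log2 ratio of the fusion over the control for each *DpnI* fragment, and segmented it into LADs with DNAcopy. The 4 deposited lists (2 of LADs, 2 of DRs) hold region positions without a signal, score or read count, so the depth behind a region is unknown here; per the study, WT was sequenced more deeply than the KO, and the part of depth in any difference was not tested. Repeating the LAD subtraction returned the deposited DRs exactly.

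Positions were read as 1-based and compared with NCBIM37 and GENCODE vM1 in Python 3.11.15, with pysam 0.24.0 and samtools 1.23.1 for sequence and matplotlib 3.10.9 for figures. Overlap required at least 1 base of the gene span. Exons are those of the coding transcript with the most exonic bases. Interval steps were tested on simulated data (200 cases for each of 5 steps, 0 wrong). No test was made, as each genotype has 1 pooled pair of libraries.

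All 10 members were named, and of the 21 further genes those classed PI, IP or AMB and the 3 of the rest nearest to a LAD, except for some items not reported here. Neighboring genes were named only where they share a DR or gap with a member. The members and lists were chosen with earlier results of these data known. RefSeq promoter windows were placed in NCBIM37 by exact match. Alternatives were other overlaps, windows, minimum lengths and joined LADs.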

Additional observations from a re-analysis of the deposited data

How the results depend on the processing

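Values were counted as unchanged within a factor of 1.5, since no spread between libraries exists. IP genes among the 10 clock genes numbered 2 as reported, 0 if at least 50% of the span had to lie in DRs, and 1 if only the start was classed, if DRs had to reach 20 kb or if LADs under 20 kb were left out. All coding genes moved the same way under these settings, to 7.54%, 12%, 11.1% and 13.4% IP. The 1 gene that remained was *Npas2*. In a 100 kb window around each gene, 1 clock gene (*Nr1d2*) was PI, beside 9.71% of all coding genes. Leaving out LADs under 20 kb left 1 exon in KO LADs only in place of 7, and set the median distance to 899.9 kb in WT and 95.7 kb in the KO. Median coverage was 0% in both genotypes in a 100 kb window, where 2 genes had more KO than WT LAD in place of 9, and 7.19% in WT and 10.4% in the KO in a 2 Mb window, so that the medians lay closer together than in 1 Mb. Among the 21 further genes, classing the start gave 0 PI, 1 IP (*Rora*) and 0 AMB, and asking for 10% of the span gave 0 AMB, with *Rora* IP and *Btrc* II. The clock genes nearer a LAD in the KO numbered 9 under each setting for distances, and no clock gene changed direction under them. Each class, border and distance rests on 1 pooled library pair per genotype, with no reads per region to set a precision. No paired analysis was possible because each group holds 1 library and no test was made.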

Other observations

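The coding genes near the clock genes were classed by the same rule. Within 1 Mb centered on *Clock*, 6 of the 10 other coding genes were IP, and around *Npas2* 5 of 10 were, beside 17.1% of all coding genes. Around *Cry1*, 5 of the 9 other coding genes were IP and 1 was PI, and around *Arntl* 3 of 6 were IP. The counts were 2 IP genes of 34 around *Per1*, 1 of 34 around *Nr1d1*, 1 of 18 around *Per2*, 2 of 14 around *Cry2* and 1 of 9 around *Per3*. Around *Nr1d2*, where a nearby WT LAD had no KO counterpart, 2 of the 6 other coding genes were IP, 1 was AMB and none was PI. *Clock* and *Per3* also had 1 AMB gene each around them. These counts come from the same LAD lists as the classes of the members, and neighboring genes can share a DR, so they are not independent of each other.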
